A study of Mus musculus with 18 samples.

Results

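Eukaryotic translation initiation factors (eIFs) were followed in the left ventricle of mice after acute myocardial infarction (AMI). Genes were taken by symbol, all those that begin with Eif and a digit from 1 to 6, which gave 55 of the 24419 symbols in the table. Of these, 53 reached 1 FPKM (mapped fragments scaled for transcript length and library size) in at least 1 mouse, and they are the members described here, among 13333 genes that passed the same filter. Eif4e1b was listed at 0 in every mouse, and Eif3j1 ranged from 0.166 to 0.305 FPKM, so both stayed below the filter.

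PolyA RNA was sequenced from heart tissue of 18 C57BL/6 mice, 8 weeks old, with 3 mice in each of 6 groups. Mice of the control group were sham operated, and those of the other groups were sampled 10 min, 1 h, 6 h, 24 h or 72 h after the proximal left anterior descending coronary artery was tied off under sodium pentobarbital. No group carries an engineered allele. Each library is 1 mouse of a time series taken from different animals, so no mouse was measured more than once.

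Initiation places the ribosome on the start codon of an mRNA. The eIF4F complex, formed of the cap-binding protein eIF4E, the scaffold eIF4G and the helicase eIF4A, recruits the mRNA. The small ribosomal subunit arrives with eIF3, eIF1, eIF1A, eIF5 and the ternary complex, in which eIF2 carries the initiator tRNA and GTP. This process has 2 well known brakes, the 4E-BP proteins, which hold eIF4E away from eIF4G until mTOR phosphorylates them, and the eIF2 kinases, which phosphorylate the alpha subunit of eIF2 and so block its recharging by eIF2B. Both brakes act on proteins, and the values here are mRNA levels.

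FPKM summed to between 542418 and 600467 per mouse, log2 values of mice of the same group correlated at 0.969 to 0.996, and the table gives no read counts, so depth is not known directly. Marker genes of the main cell types changed in level: 8 cardiomyocyte markers (Myh6, Tnnt2 and others) summed to 55800 to 59300 FPKM in control mice and to 20400 to 25400 at 72 h, while 6 fibroblast markers rose from 228 to 256 up to 3650 to 4780 FPKM. The sum of 10 leukocyte markers was 191 to 213 FPKM in control mice, 246 to 1170 at 6 h, 551 to 1560 at 24 h and 3440 to 4560 at 72 h. Within that list the markers did not move together at 6 h, when the neutrophil genes S100a8 and S100a9 averaged 84.3 and 382 FPKM against 0.422 and 2.72 in control mice, while Csf1r, a macrophage gene, was called lower at 0.725 times its control mean. None of the markers was at 0 in all mice, and 5 endothelial markers summed to 440 to 492 FPKM in control mice and 372 to 478 at 72 h. Of these, Emcn, Kdr and Tie1 were called lower at 72 h, where 24.2% of all genes were, and the others were not called. The sum of 4 cell division markers was 0.433 to 0.897 FPKM in control mice and 70.9 to 104 at 72 h. In such bulk tissue, fewer cells of a type and less RNA per cell cannot be told apart, and the part of these shifts in the results below was not tested.

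Each time point was compared with control on its own 6 mice by limma on log2(FPKM + 1), and "called" means a Benjamini-Hochberg adjusted p under 0.05 over all genes tested. Fold changes are differences of mean log2(FPKM + 1), given with their standard error (SE), and they understate the change of genes with low FPKM. An exact permutation test of 3 mice against 3 cannot give a p below 0.1. The scale of the values mattered at late times: at 72 h the log2 fold changes of all genes had a median of 0.288 with FPKM as deposited and 0.0309 after median-of-ratios scaling, a method that sets the typical gene to no change. A direction is therefore said to hold in all 4 scalings when FPKM as deposited, FPKM with equal sums, and values after median-of-ratios scaling or quantile normalization all called the gene the same way.

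No member was called within 1 h, and the number called then grew at 6, 24 and 72 h, as did the number called over all genes. At 10 min limma called no member, against 0.248% of all genes called higher and 0.0978% called lower. At an unadjusted p under 0.05, 3 members were higher and 5 lower, beside 1955 of all 13297 genes tested in either direction. At 1 h again no member was called, against 0.669% of all genes higher and 0.0526% lower. Here 1 member was higher and 2 lower at an unadjusted p under 0.05, beside 1673 of all 13300 genes in either direction. At 6 h, 8 members were called higher and 2 lower, where 11.6% of all genes were higher and 16.8% lower. At 24 h, 20 members were called higher and 2 lower, against 26.2% and 11.4% of all genes. At 72 h, 33 members were called higher and 9 lower, beside 53.1% of all genes higher and 24.2% lower.

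Set against the whole transcriptome with FPKM as deposited, the median member stood above the median gene at 6 h and 24 h and close to it at 72 h. Their median log2 fold change was 0.0284 at 6 h, where that of all genes was -0.0831, and 39 of 53 members lay above the median of all genes. At 24 h the medians were 0.254 for the members and 0.127 for all genes, again with 39 of 53 above. At 72 h the medians were 0.279 and 0.288, and 25 of 53 members lay above, but the order depended on scaling, with medians of -0.032 for members and 0.0309 for all genes after median-of-ratios scaling and of 0.0646 and -0.117 after quantile normalization. Called in the same direction in all 4 scalings were 7 higher and 0 lower at 6 h, 14 higher and 2 lower at 24 h, and 11 higher and 6 lower at 72 h. The same count was not made over all genes, so these numbers cannot be set against a share of the transcriptome. A further 9 members called higher at 72 h changed sign under another scaling, namely Eif1ax, Eif1b, Eif2ak1, Eif3c, Eif3h, Eif3k, Eif4a3, Eif4ebp3 and Eif4enif1. As a share of all FPKM, the 53 members made up 0.501% to 0.503% in control mice, 0.602% to 0.715% at 24 h and 0.577% to 0.635% at 72 h.

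**Figure D1:**
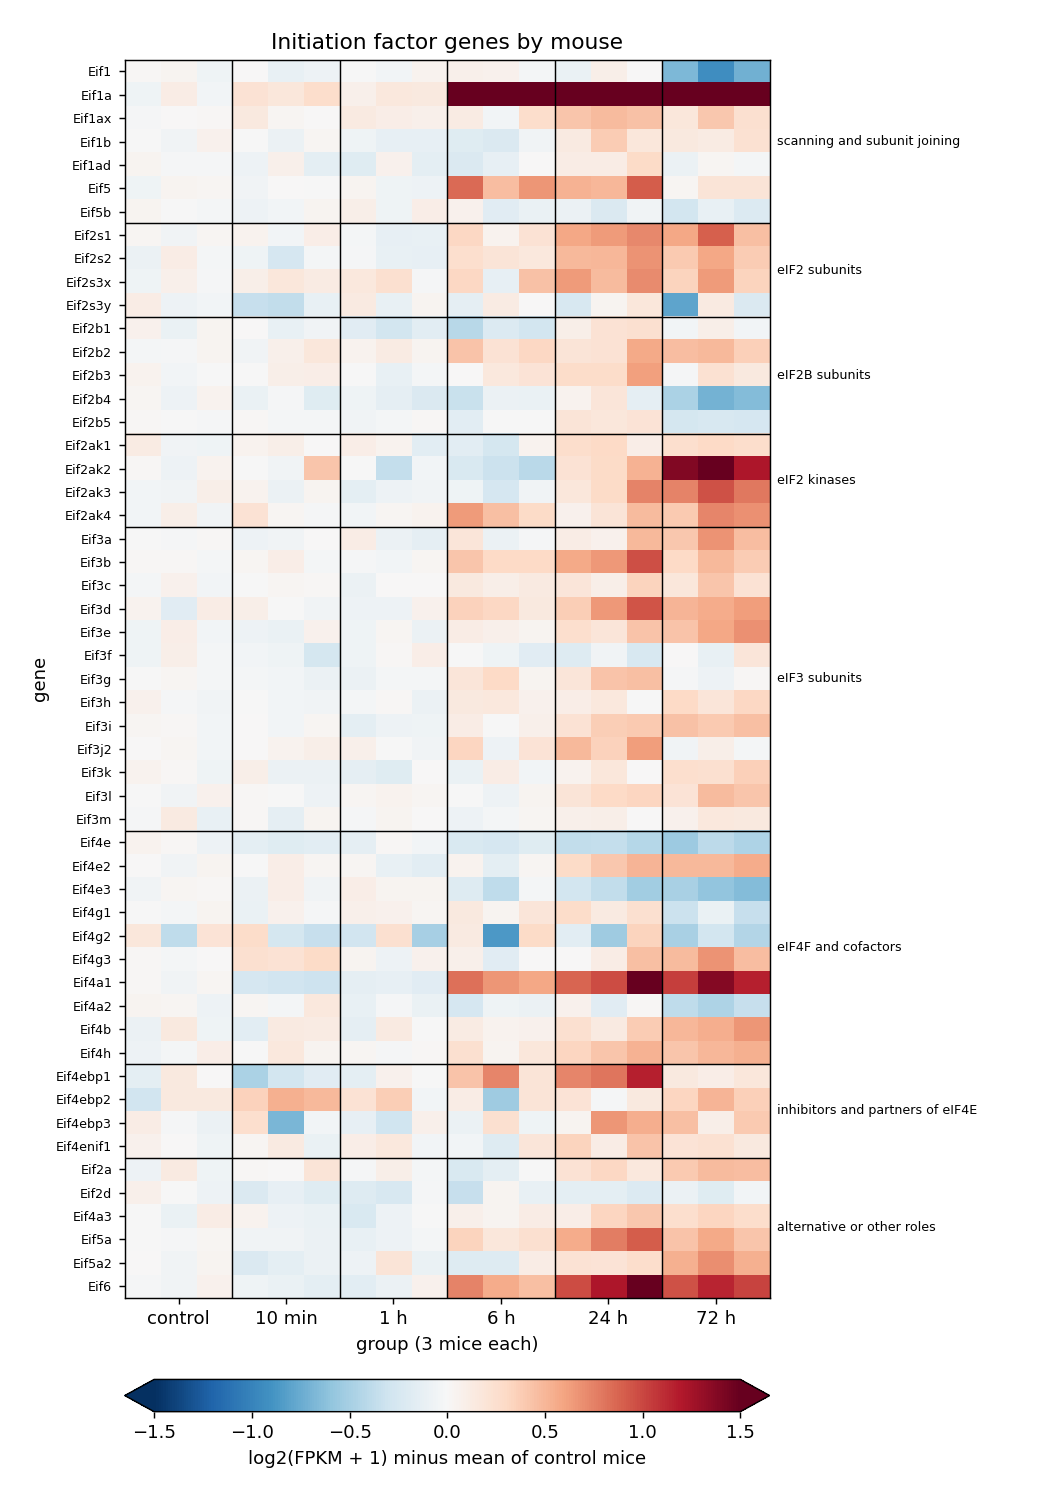
Each row is one of the 53 initiation factor genes, ordered by role, and each column is 1 mouse (3 per group, in order of time). Colour gives log2(FPKM + 1) minus the mean of the control mice, cut off at 1.5 either way. Most rows are pale through 1 h, and from 6 h Eif1a, Eif4a1 and Eif6 are red in every mouse, while Eif1, Eif2b4, Eif4e and Eif4e3 are blue at 72 h.

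Among the factors for scanning and subunit joining, Eif1a made the largest rise of all members at 6, 24 and 72 h. Eif1a lies on chromosome 18 from 46597701 to 46616456 of mm10 and encodes eIF1A, which holds the scanning ribosome open until the start codon is found. Control mice had 5.96, 6.87 and 6.08 FPKM, mice at 1 h had 6.71, 7.16 and 7.07, and mice at 6 h had 31.8, 21.1 and 24.0. The groups at 6 h and control were far apart, with a log2 fold change of 1.85 (SE 0.15, adjusted p = 0.000559). Its level was 21.3, 21.7 and 38.1 FPKM at 24 h and 27.7, 35.7 and 31.0 in 72 h mice, so that all mice from 6 h onward lay above all earlier mice. At 72 h the change was 2.15 (SE 0.10, adjusted p = 2.75e-07), and at all of these 3 times it was called higher in all 4 scalings.

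Its X-linked paralogue Eif1ax encodes nearly the same protein and moved far less. Eif1ax stood at 57.5, 58.4 and 59.2 FPKM in control mice, 63.8, 56.9 and 70.0 in 6 h mice, and 78.2, 81.2 and 79.6 in 24 h mice. The control and 6 h values overlap, whereas all 24 h mice lay above control (log2 fold change 0.44, SE 0.07, adjusted p = 0.0064). Read as a ratio within each mouse, Eif1a to Eif1ax was 0.103 to 0.118 in control mice and 0.342 to 0.498 at 6 h. At 72 h this ratio was 0.420 to 0.462, described here without a test.

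Eif5 rose early and then returned. It encodes the factor that makes eIF2 hydrolyse its GTP once the start codon is recognised. Control mice had 42.1, 45.3 and 44.9 FPKM, mice at 6 h had 80.3, 61.3 and 70.2, and mice at 24 h had 63.5, 62.4 and 83.6. Neither later group overlapped control, with log2 fold changes of 0.66 at 6 h (SE 0.11, adjusted p = 0.00551) and 0.64 at 24 h (SE 0.12, adjusted p = 0.0113), both called in all 4 scalings. Without control mouse 1 the 24 h change was 0.607 with an adjusted p of 0.0546. At 72 h Eif5 was back at 44.9, 50.6 and 50.4 FPKM, a range that overlaps control (log2 fold change 0.14, SE 0.07, adjusted p = 0.106).

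Eif1 went the other way, and only at the last time. It encodes a small protein that guards the accuracy of start codon choice, and it was the most abundant member in control mice by FPKM. It held at 406, 412 and 384 FPKM in control mice and at 375, 425 and 402 in 24 h mice, which overlap, and stood at 251, 209.7 and 242 in 72 h mice. All 72 h mice were below every other mouse of the study (log2 fold change -0.78, SE 0.09, adjusted p = 4.26e-05, lower in all 4 scalings). Of its longest coding transcript, 25.6% of 75-base stretches occur in other annotated genes, the largest number of them in Gm10157, so part of its signal depends on how reads were assigned. Eif5b, for the subunit-joining GTPase, changed by -0.20 at 72 h (SE 0.07, adjusted p = 0.0262), a call not made with FPKM brought to the same sum (-0.12, adjusted p = 0.162) and lost without control mouse 1 or 2 or 72 h mouse 1 or 3 (adjusted p = 0.0634 to 0.0873). Eif1b changed by 0.17 (adjusted p = 0.0406), a call that changed sign under median-of-ratios scaling or quantile normalization and was lost without control mouse 1 or 2 or 72 h mouse 3 (adjusted p = 0.103 to 0.141).

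**Figure D2:**
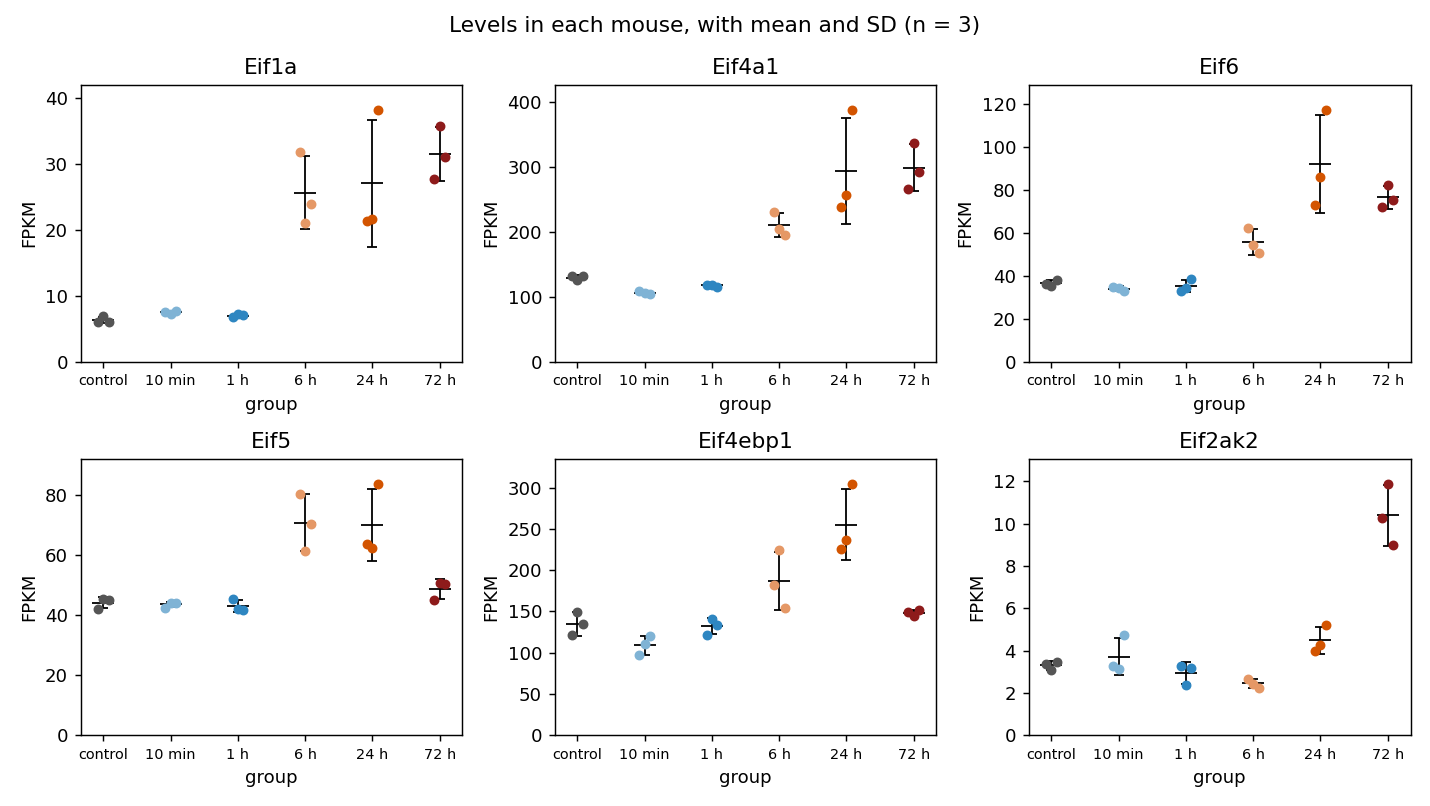
FPKM of 6 genes in each mouse (points), with the mean and SD of the 3 mice of each group, on axes that start at 0. Eif1a, Eif4a1 and Eif6 are raised from 6 h to 72 h, Eif5 and Eif4ebp1 peak at 6 to 24 h and are near control again at 72 h, and Eif2ak2 is highest at 72 h, at 8.997 to 11.9 FPKM.

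The subunits of eIF2 rose together at 24 h, with the exception of the Y-linked one. Eif2s1, on chromosome 12 from 78861819 to 78887010, encodes the alpha subunit that the stress kinases phosphorylate. It had 18.8, 17.7 and 18.9 FPKM in control mice, 27.9, 29.3 and 31.0 in 24 h mice, and 28.0, 35.3 and 25.6 in 72 h mice. Both late groups lay above all control mice, with log2 fold changes of 0.64 at 24 h (SE 0.08, adjusted p = 0.00388) and 0.64 at 72 h (SE 0.11, adjusted p = 0.000686), both called in all 4 scalings. Eif2s2, for the beta subunit, changed by 0.55 at 24 h and 0.45 at 72 h, and was called at both times. Eif2s3x, for the gamma subunit, changed by 0.61 and 0.44, also called at both, although 35.7% of its 75-base stretches occur elsewhere, all of them present in Gm2223. At 72 h neither of these 2 genes was called in all 4 scalings.

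Eif2s3y, the Y-linked copy of the gamma subunit gene, was not called at any time. It had 38.2, 33.3 and 34.4 FPKM in control mice, 29.7, 36.1 and 39.6 in 24 h mice, and 19.997, 38.7 and 30.3 in 72 h mice. The groups overlap, with a log2 fold change at 72 h of -0.29 and a 95% interval from -0.74 to 0.16. Within each mouse the ratio of Eif2s3x to Eif2s3y was 0.619 to 0.782 in control mice, 0.962 to 1.32 at 24 h and 1.01 to 1.58 at 72 h.

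The 5 subunits of eIF2B, the exchange factor that reloads eIF2 with GTP, did not move as a unit. In control mice they ranged from 3.67 FPKM for Eif2b3 to 40.2 for Eif2b4. At 72 h Eif2b2 was called higher (log2 fold change 0.43), Eif2b4 and Eif2b5 were called lower, and Eif2b1 and Eif2b3 were not called (0.00 and 0.12). Eif2b4, for the delta subunit in the regulatory core, had 39.4, 36.6 and 40.2 FPKM in control mice and 27.6, 23.2 and 24.4 in 72 h mice. Its groups did not overlap (log2 fold change -0.61, SE 0.08, adjusted p = 0.000128), and the gene shares 204 exonic bases with Snx17 on the opposite strand, whose reads may not have been told apart. Eif2b5, for the catalytic epsilon subunit, had 24.6, 24.2 and 23.8 FPKM in control mice and 19.9, 20.3 and 20.1 in 72 h mice, again without overlap (-0.26, SE 0.06, adjusted p = 0.00332). Both falls were called in all 4 scalings, and the rise of Eif2b2 at 72 h was not.

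At 6 h Eif2b2 was called higher (0.32, SE 0.08, adjusted p = 0.027) and Eif2b1 lower (-0.30, SE 0.09, adjusted p = 0.0476). The rise of Eif2b2 was not called without 6 h mouse 1 (adjusted p = 0.0509) or without any 1 of the control mice (0.0807 to 0.104). The fall of Eif2b1 was not called under median-of-ratios scaling (-0.22, adjusted p = 0.126), quantile normalization (-0.27, adjusted p = 0.0787), or without any 1 of the control mice (adjusted p = 0.0787 to 0.167) or without 6 h mouse 1 (0.0965) or mouse 3 (0.0596). At 24 h the only eIF2B gene called was Eif2b3 (0.39, SE 0.12, adjusted p = 0.0434), which was not called without 24 h mouse 2 (0.0526) or without any 1 of the control mice (0.108 to 0.134).

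The 4 eIF2 kinases respond to different stresses, and all 4 genes were called higher at 72 h with FPKM as deposited, where 53.1% of all genes were. Of these genes, only Eif2ak2 and Eif2ak3 were called higher at 72 h in all 4 scalings. Eif2ak2 encodes PKR, which binds double-stranded RNA and is itself an interferon-induced gene, on chromosome 17 from 78852564 to 78882573. It had 3.37, 3.08 and 3.48 FPKM in control mice, 2.68, 2.43 and 2.26 in 6 h mice, 4.01, 4.27 and 5.19 in 24 h mice, and 10.3, 11.9 and 8.997 in 72 h mice. Every 72 h mouse was above every other mouse of the study (log2 fold change 1.40, SE 0.10, adjusted p = 3.66e-06, higher in all 4 scalings). Its values at 6 h lay below control (-0.32, SE 0.10, adjusted p = 0.0449), a call not made under median-of-ratios scaling (-0.26, adjusted p = 0.103), under quantile normalization (-0.28, adjusted p = 0.0668), without any 1 of the control mice (adjusted p = 0.0893 to 0.151) or without 6 h mouse 2 (0.0754) or mouse 3 (0.077).

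Eif2ak3 encodes PERK, the kinase of the endoplasmic reticulum. It stood at 2.95, 2.91 and 3.30 FPKM in control mice, 3.56, 3.95 and 5.79 in 24 h mice, and 5.77, 6.84 and 6.02 in 72 h mice. At 72 h the groups were apart (log2 fold change 0.83, SE 0.09, adjusted p = 3.31e-05, higher in all 4 scalings), and at 24 h the change of 0.40 was not called (adjusted p = 0.0869). At both late times all mice lay above control.

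Eif2ak4, for the amino acid sensor GCN2, was the only kinase gene called higher at 6 h. It had 1.73, 1.997 and 1.71 FPKM in control mice, 3.38, 2.83 and 2.44 in 6 h mice, 1.94, 2.22 and 2.90 in 24 h mice, and 2.69, 3.66 and 3.53 in 72 h mice. The change at 6 h was 0.46 (SE 0.12, adjusted p = 0.0258, in all 4 scalings), though its adjusted p was 0.0602 to 0.0955 without any 1 of the control mice. At 72 h it was 0.60 (SE 0.11, adjusted p = 0.000916), which quantile normalization reduced to 0.05 (adjusted p = 0.666). Eif2ak1, for the heme-regulated kinase, had 13.1, 11.4 and 11.3 FPKM in control mice and 14.4, 14.9 and 14.5 in 72 h mice. Its log2 fold change of 0.28 (SE 0.07, adjusted p = 0.00844) became -0.02 under median-of-ratios scaling and -0.11 under quantile normalization. As a share of the summed kinase FPKM, Eif2ak2 went from 15.8% to 17.6% in control mice to 27.2% to 31.8% at 72 h.

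The letters GAAANNGAAA, the core of the interferon-stimulated response element, were searched on both strands after the values had been seen, in RefSeq windows of 300 bases around gene starts (250 of them before the start, GRCm38.p6). A window was given for 42 of the 53 members, and 4 of these (9.5%) held the letters, Eif2s1, Eif2s3x, Eif2ak2 and Eif3a, against 4.0% of 27025 genes. A gene was counted if any of its windows held the letters. The 27025 genes were not filtered by FPKM as the members were, nor matched for the number of windows. In Eif2ak2 the match begins 18 bases after the listed start, at chr17:78882538-78882561 on the minus strand, and is shown because this kinase gene had the largest change of the 4 at 72 h, with the match in capitals.
Eif2ak2: ccgccggGAAAACGAAAcagaaga
The match describes the letters of the window only.

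**Figure D3:**
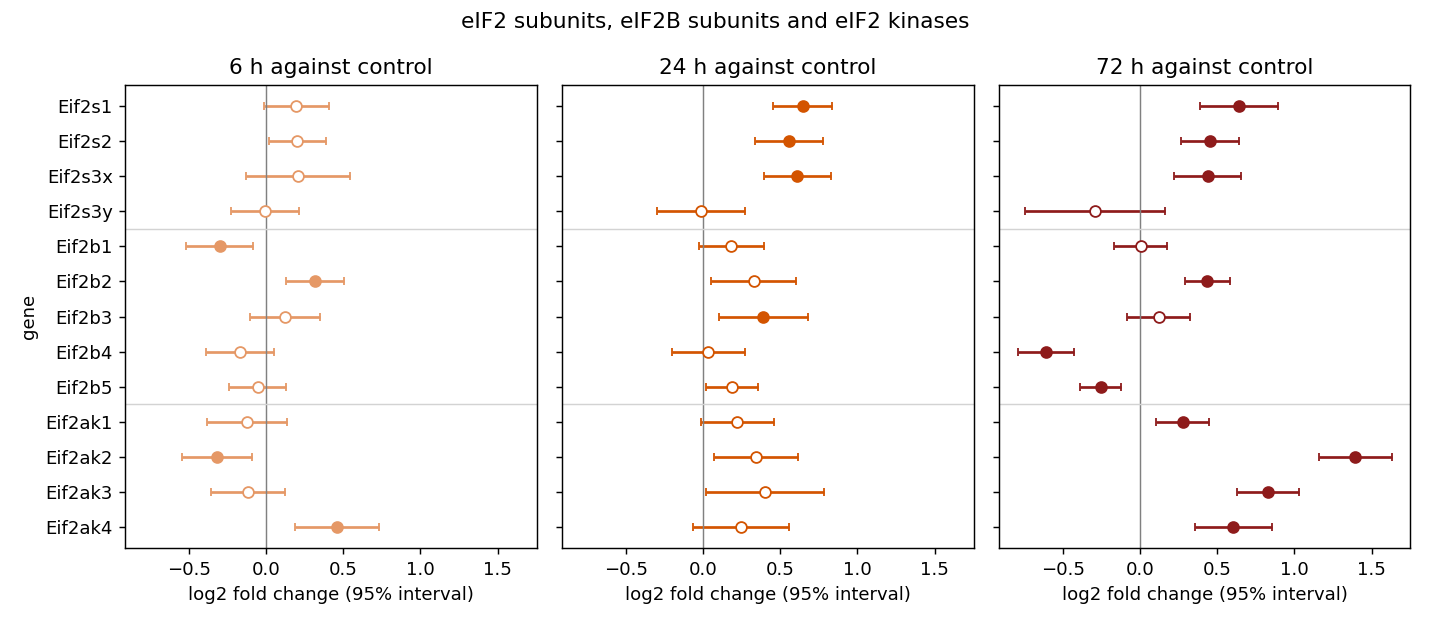
Log2 fold change against control (points) with its 95% interval from limma for the 4 eIF2 subunit genes, the 5 eIF2B subunit genes and the 4 eIF2 kinase genes at 6, 24 and 72 h. Filled points were called at an adjusted p under 0.05. At 24 h 3 of 4 eIF2 subunits are filled and no kinase is, and at 72 h all 4 kinases are filled while the eIF2B points lie on both sides of 0. Of all genes, 26.2% were called higher at 24 h and 53.1% at 72 h.

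The subunits of eIF3, the scaffold that keeps the small ribosomal subunit ready for mRNA, had small changes, and none was called lower at any time against control. Of the 13 measured subunits, 1 was called higher at 6 h (Eif3b), 7 at 24 h and 9 at 72 h, where 11.6%, 26.2% and 53.1% of all genes were. At 72 h 3 of the 9 were called in all 4 scalings (Eif3a, Eif3d and Eif3e), and Eif3c, Eif3h and Eif3k changed sign under another scaling, while after median-of-ratios scaling Eif3f, Eif3g and Eif3j2 were called lower. Several of these calls were lost without 1 mouse: that of Eif3b at 6 h without any 1 of the control mice (adjusted p = 0.0521 to 0.0633), and at 24 h those of Eif3d, Eif3e, Eif3g, Eif3i, Eif3j2 and Eif3l in 3, 5, 4, 3, 2 and 4 of the 6 fits without 1 mouse (adjusted p = 0.0505 to 0.164). Their FPKM summed to 855 to 892 in control mice, 907 to 953 at 6 h, 984 to 1082 at 24 h and 1034 to 1098 at 72 h, so every mouse of these later groups lay above every control mouse. Eif3b, for a core scaffold subunit, had the largest change at 24 h (0.73, SE 0.12, adjusted p = 0.00659), and its FPKM went from 50.2 to 52.0 in control mice to 76.4 to 101 at 24 h. At 72 h it had 63.2 to 72.4 FPKM (0.39, adjusted p = 0.000769).

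Eif3a, for the largest subunit, was called at 72 h alone. It had 45.1, 44.4 and 45.8 FPKM in control mice, 49.0, 47.4 and 63.8 in 24 h mice, and 60.2, 72.7 and 62.3 in 72 h mice. The 72 h mice were all above control (0.51, SE 0.08, adjusted p = 0.000357, in all 4 scalings), and so were the 24 h mice, with a change of 0.23 that was not called (adjusted p = 0.177). Eif3k, for a peripheral subunit, had 76.8, 75.3 and 71.0 FPKM in control mice and 88.6, 88.0 and 95.7 in 72 h mice. Its change of 0.28 (SE 0.07, adjusted p = 0.00381) turned to -0.03 under median-of-ratios scaling.

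Of the other eIF3 subunits, Eif3d (0.56) and Eif3e (0.56) were called higher at 72 h in all 4 scalings, while Eif3f, Eif3g, Eif3j2 and Eif3m were not called. Eif3j2 had 33.6 to 35.3 FPKM in control mice, 44.0 to 54.0 at 24 h (0.49, adjusted p = 0.011, but 0.0524 and 0.0505 without control mouse 1 and 3) and 33.3 to 36.7 at 72 h. This single-exon gene shares 87.4% of its 75-base stretches with other genes, all of them present in its paralogue Eif3j1, so its level and the near absence of Eif3j1 depend on how reads were assigned. Eif3d overlaps an antisense gene, Gm17638, over 2151 exonic bases.

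In eIF4F and its cofactors, members of the same protein family moved apart. At 24 h 3 of 10 genes were called higher and 2 lower, and at 72 h 5 were higher (Eif4a1, Eif4b, Eif4e2, Eif4g3, Eif4h) and 5 lower (Eif4a2, Eif4e, Eif4e3, Eif4g1, Eif4g2), where 26.2% and 11.4% of all genes were called at 24 h and 53.1% and 24.2% at 72 h. The call of Eif4g2 at 72 h was lost without control mouse 1 or 3 or 72 h mouse 1 or 3 (adjusted p = 0.0866 to 0.119). The helicase paralogues were the clearest case. Eif4a1, on chromosome 11 from 69666936 to 69672423, had 131, 125 and 133 FPKM in control mice, 108, 106 and 104 in 10 min mice, 231, 205 and 195 in 6 h mice, 239, 256 and 388 in 24 h mice, and 267, 338 and 293 in 72 h mice. All mice from 6 h on lay above control, with log2 fold changes of 0.69 at 6 h (SE 0.08, adjusted p = 0.00194), 1.14 at 24 h (SE 0.18, adjusted p = 0.00651) and 1.19 at 72 h (SE 0.09, adjusted p = 4.87e-06), each called in all 4 scalings. At 10 min all mice lay below control, and the change of -0.29 (SE 0.05) was the one closest to the threshold at that time, with an adjusted p of 0.0635.

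Eif4a2 encodes a helicase of the same family and fell late. Its FPKM were 132, 131 and 121 in control mice, 133, 113 and 129 in 24 h mice, and 97.7, 92.2 and 99.9 in 72 h mice. The 24 h values overlap control, and all 72 h values lie below it (log2 fold change -0.40, SE 0.07, adjusted p = 0.000581, in all 4 scalings). Both helicase mRNAs were thus at equal levels in control mice, with an Eif4a1 to Eif4a2 ratio of 0.959 to 1.101, while the ratio was 0.735 to 0.845 at 10 min, 1.62 to 2.17 at 6 h and 2.73 to 3.66 at 72 h. This is a description, and 62.9% of the 75-base stretches of Eif4a1 occur in other genes, all of them present in the pseudogene Eif4a-ps4.

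The cap-binding proteins diverged as well. Eif4e, for the main cap-binding protein, had 58.8, 57.8 and 54.0 FPKM in control mice, 43.7, 44.0 and 42.2 in 24 h mice, and 38.8, 43.0 and 40.9 in 72 h mice. It was below control in every late mouse, by -0.38 at 24 h (SE 0.07, adjusted p = 0.0112) and -0.47 at 72 h (SE 0.07, adjusted p = 0.000231). Eif4e3, for a divergent cap-binding relative, had 30.6, 32.3 and 32.0 FPKM in control mice, 26.1, 24.2 and 21.8 in 24 h mice and 22.3, 20.7 and 19.8 in 72 h mice. It too lay below control in every late mouse, by -0.39 at 24 h (SE 0.09, adjusted p = 0.0184) and -0.57 at 72 h (SE 0.07, adjusted p = 6.27e-05).

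These falls of Eif4e and Eif4e3 were called in all 4 scalings at both times. At 24 h that of Eif4e had an adjusted p of 0.0603 without control mouse 1 and 0.057 without control mouse 2, and that of Eif4e3 0.0648 to 0.0773 without any 1 of the control mice. Eif4e3 shares 14.8% of its exonic bases with Gm20696 on the same strand. Eif4e2, whose protein 4EHP binds the cap without eIF4G and is known as a repressor, rose instead. It ranged from 10.8 to 11.6 FPKM in control mice, 14.0 to 16.4 at 24 h (0.40, SE 0.09, adjusted p = 0.0175) and 16.1 to 17.0 at 72 h (0.51, SE 0.07, adjusted p = 0.000109), without overlap. At neither time was it called in all 4 scalings, and in 3 of 6 fits without 1 mouse it was not called at 24 h (adjusted p = 0.0596 to 0.0768). Its share of the summed Eif4e, Eif4e2 and Eif4e3 FPKM, which a single scaling factor per library cannot change, was 10.7% to 11.9% in control mice, 16.7% to 20.4% at 24 h and 20.3% to 21.9% at 72 h.

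The scaffold genes also parted. Eif4g1 had 105, 103 and 109 FPKM in control mice, 128, 116 and 125 in 24 h mice, and 84.7, 98.8 and 83.1 in 72 h mice. All 72 h mice lay below control (-0.25, SE 0.08, adjusted p = 0.0171), a call lost when FPKM were brought to the same sum (-0.17, adjusted p = 0.0954), without 72 h mouse 3 (-0.21, adjusted p = 0.0625) or without control mouse 3 (-0.23, adjusted p = 0.06). Eif4g3, a less abundant paralogue, ranged from 10.96 to 11.3 FPKM in control mice and from 15.8 to 18.4 at 72 h (0.54, SE 0.08, adjusted p = 0.000215), without overlap, and was not called under quantile normalization (0.17, adjusted p = 0.0775). Of the cofactors that stimulate the helicase, Eif4b changed by 0.57 and Eif4h by 0.48 at 72 h, both called higher in all 4 scalings.

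**Figure D4:**
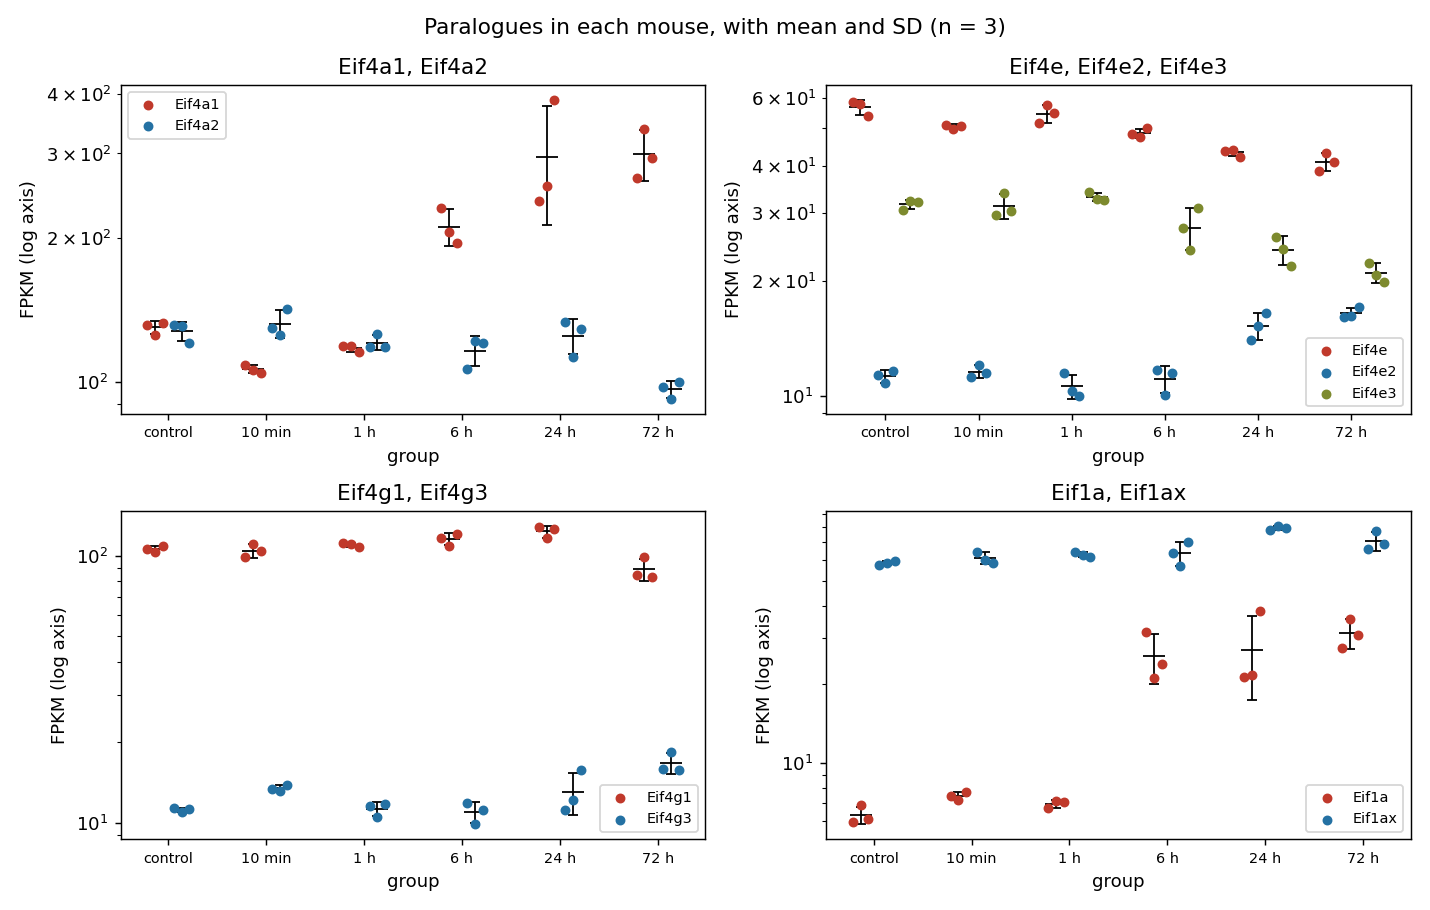
FPKM of paralogues in each mouse (points), on log axes, with the mean and SD of the 3 mice of each group. Eif4a1 and Eif4a2 are level in control mice and 2.73 to 3.66 times apart at 72 h, Eif4e and Eif4e3 decline while Eif4e2 rises, Eif4g1 and Eif4g3 move in opposite directions at 72 h, and Eif1a approaches Eif1ax from 6 h.

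Promoter letters were read for eIF4F and its cofactors because the genes moved in opposite directions. The E-box CACGTG, bound by MYC, MAX and related factors, is a palindrome and reads the same on both strands. It occurred in the RefSeq windows of 10 of 42 members (23.8%), Eif1b, Eif3a, Eif3f, Eif3k, Eif4e, Eif4g1, Eif4a1, Eif4h, Eif5a and Eif5a2, against 8.1% of 27025 genes. For all letters read here, the 27025 genes were again neither filtered by FPKM nor matched for windows per gene. Shown are 30 bases (GRCm38.p6, gene strand) around each copy that precedes a RefSeq start in 4 genes of eIF4F and its cofactors, with the E-box in capitals. Eif4e (chr3:138527028-138527057 and chr3:138527192-138527221, plus strand) and Eif4g1 (chr16:20672661-20672690, plus strand) were lower at 72 h, while Eif4h (chr5:134639488-134639517, minus strand) and Eif4a1 (chr11:69672595-69672624, minus strand) were higher.
Eif4e, E-box from base -228: ctcgccagcgacCACGTGatcacttttttt
Eif4e, E-box from base -64: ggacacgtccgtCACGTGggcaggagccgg
Eif4g1, E-box from base -54: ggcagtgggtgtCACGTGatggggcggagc
Eif4h, E-box from base -96: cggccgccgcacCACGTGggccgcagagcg
Eif4a1, E-box from base -189: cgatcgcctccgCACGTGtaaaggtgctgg
Of these 4 genes, the call of Eif4g1 was lost with equal FPKM sums, as given above. The same letters stood before a RefSeq start of genes called higher and of genes called lower. Whether the letters bear on direction was not tested. In Eif4e and Eif4g1 they lie within the GENCODE gene, which begins further upstream, at 138526179 and 20668313. The ETS letters CCGGAAGT, on either strand, were found in 8 of 42 members (19.0%) and 4.3% of all genes, and a start at C followed by 4 pyrimidines, as in mRNAs with a terminal oligopyrimidine tract, in 2 of 42 (4.8%) and 3.0%. The letters TTGCATCA, a form of the C/EBP-ATF element, were found in 0 of 42 and 1.0% of all genes.

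Among the inhibitors of eIF4E, Eif4ebp1 gave most of the mRNA and showed a transient rise. Eif4ebp1, on chromosome 8 from 27260329 to 27276674, encodes 4E-BP1 and had 121, 149.8 and 135 FPKM in control mice, 182, 224 and 155 in 6 h mice, 225, 236 and 304 in 24 h mice, and 149, 145 and 152 in 72 h mice. The 6 h mice were all above control but the change was not called (log2 fold change 0.45, SE 0.14, adjusted p = 0.0515), the 24 h change was called in all 4 scalings (0.90, SE 0.14, adjusted p = 0.00629), and the 72 h values overlap control (0.14, SE 0.08, adjusted p = 0.16). Eif4ebp1 made up 87.5% to 88.9% of the summed FPKM of Eif4ebp1, Eif4ebp2 and Eif4ebp3 in control mice and 91.7% to 93.5% at 24 h. As Eif4e fell meanwhile, the ratio of Eif4ebp1 to Eif4e was 2.06 to 2.59 in control mice, 5.15 to 7.22 at 24 h and 3.37 to 3.84 at 72 h.

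Eif4ebp2, for the second 4E-BP, had 12.1, 16.7 and 16.7 FPKM in control mice, 19.3, 22.1 and 21.4 in 10 min mice, and 18.9, 21.8 and 19.5 in 72 h mice. The 10 min mice lay above control without a call (0.45, SE 0.12, adjusted p = 0.186). Its call at 72 h (0.40, SE 0.12, adjusted p = 0.0171) was lost under median-of-ratios scaling (0.09, adjusted p = 0.483), quantile normalization (0.06, adjusted p = 0.634) and without 72 h mouse 2 (0.34, adjusted p = 0.0571). Eif4ebp3 was low, with 3.07, 2.75 and 2.55 FPKM in control mice and 4.19, 3.02 and 3.98 in 72 h mice, which overlap (0.31, adjusted p = 0.0335), and its sign turned under quantile normalization (-0.22, adjusted p = 0.145). Its call was also lost without 72 h mouse 1 (0.24, adjusted p = 0.108) or 72 h mouse 3 (0.27, adjusted p = 0.103), and without control mouse 2 (0.0782) or control mouse 3 (0.105). Eif4ebp3 shares 67.3% of its exonic bases with AC115631.1 on the same strand, so its level is uncertain. Eif4enif1, for the eIF4E transporter, was called only at 72 h (0.19, adjusted p = 0.0305), with a sign that another scaling turned and a call lost in 4 of 6 fits without 1 mouse (adjusted p = 0.0629 to 0.107).

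Of the 6 factors that carry an eIF name but work mainly elsewhere or in alternative initiation, Eif6 and Eif5a rose at every late time. Eif6, on chromosome 2 from 155819832 to 155826925, encodes a protein that binds the large ribosomal subunit and is needed to make it. Its FPKM were 36.2, 35.4 and 38.2 in control mice, 62.2, 54.3 and 50.4 in 6 h mice, 72.9, 86.0 and 117 in 24 h mice, and 72.1, 82.1 and 75.1 in 72 h mice. No late mouse overlapped control, with log2 fold changes of 0.59 (SE 0.09, adjusted p = 0.00548), 1.28 (SE 0.17, adjusted p = 0.00435) and 1.04 (SE 0.07, adjusted p = 2.20e-06) in turn, each called in all 4 scalings.

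Eif5a encodes the hypusine-bearing factor that helps elongation through difficult peptides. It had 222, 219.7 and 228 FPKM in control mice, 281, 251 and 264 in 6 h mice, 328, 379 and 420.4 in 24 h mice, and 301, 331 and 298 in 72 h mice. Each late group lay above control, by 0.25 at 6 h (SE 0.07, adjusted p = 0.0332), 0.74 at 24 h (SE 0.11, adjusted p = 0.00532) and 0.47 at 72 h (SE 0.07, adjusted p = 0.00028). Only the 24 h call held in all 4 scalings. The 6 h call was lost without 6 h mouse 1 (0.21, adjusted p = 0.0621) or without any 1 of the control mice (adjusted p = 0.0979 to 0.122). Its paralogue Eif5a2 was close to the filter, with 0.794 to 0.915 FPKM in control mice and 1.68 to 2.02 at 72 h (0.59, SE 0.09, adjusted p = 0.000311). Eif2a, for a non-canonical initiator tRNA carrier, and Eif4a3, for the exon junction helicase, changed by 0.44 and 0.28 at 72 h and were called. The sign of Eif4a3 turned under another scaling, and neither Eif5a2 nor Eif2a was called at 72 h in all 4 scalings. Eif2d was not called at any time.

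Single mice weighed on some of these levels. The leukocyte marker sum at 24 h was 1560 FPKM in mouse 3 and 551 to 666 in the others, and mouse 3 also had the highest Eif1a, Eif4a1, Eif6, Eif5 and Eif4ebp1 of its group. At 6 h the sum was 1171 FPKM in mouse 1, 246 in mouse 2 and 568 in mouse 3, and Eif1a and Eif5 followed the same order. The other genes did not: Eif4a1 and Eif6 were highest in mouse 1 but lowest in mouse 3, and Eif4ebp1 was highest in mouse 2. The count of members called higher at 24 h was 19 without 24 h mouse 3, and 10, 12 and 12 without control mouse 1, 2 and 3. Over all genes the count of 3496 was 3411 without 24 h mouse 3, and 1262, 1319 and 1646 without control mouse 1, 2 and 3. At 6 h the count of 8 members was 6 without mouse 1 and 4 without any 1 of the control mice. The count over all genes, 1543, was 1294 without 6 h mouse 1 and 763, 824 and 877 without control mouse 1, 2 and 3. The part of the marker shift in these levels was not tested.

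Whether the times after ligation differed from each other was tested directly. Between 6 h and 72 h, 21 members were called higher and 7 lower at 72 h, while 50.3% of all genes were higher and 16.7% lower. This balance turned with scaling, to 3 higher and 22 lower after median-of-ratios scaling and 8 higher and 17 lower after quantile normalization. Of the 21 members, 9 changed sign. The counts over all genes shifted too, to 4271 higher and 4045 lower of 13331 after median-of-ratios scaling. After quantile normalization they were 3798 and 4663 of 13332. From 24 h to 72 h only 3 were called higher and 9 lower, while 29.7% of all genes were higher and 13.5% lower, and the median log2 fold change was -0.0611 for the members and 0.125 for all genes. Called in all 4 scalings between 24 h and 72 h were Eif2ak2, higher by 1.05 (SE 0.14, adjusted p = 0.00103), and 7 genes that were lower, Eif1, Eif2b4, Eif2b5, Eif3j2, Eif4ebp1, Eif4g1 and Eif5. Among these, Eif4ebp1 changed by -0.76 (SE 0.13, adjusted p = 0.00354), Eif1 by -0.77 (SE 0.11, adjusted p = 0.00174) and Eif5 by -0.50 (SE 0.14, adjusted p = 0.0212). The call of Eif5 was lost without any 1 of the 72 h mice (adjusted p = 0.0544 to 0.075), and that of Eif4g1 (-0.47, adjusted p = 0.0109) without 72 h mouse 3 (0.0592). Between 6 h and 72 h, Eif2ak2 (1.71) and Eif2ak3 (0.95) were higher and Eif1 (-0.81), Eif2b4 (-0.44) and Eif5 (-0.52) lower in all 4 scalings. Without 24 h mouse 3, the count of members higher at 72 h than at 24 h was 9, and without any 1 of the other mice it was 1.

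**Figure D5:**
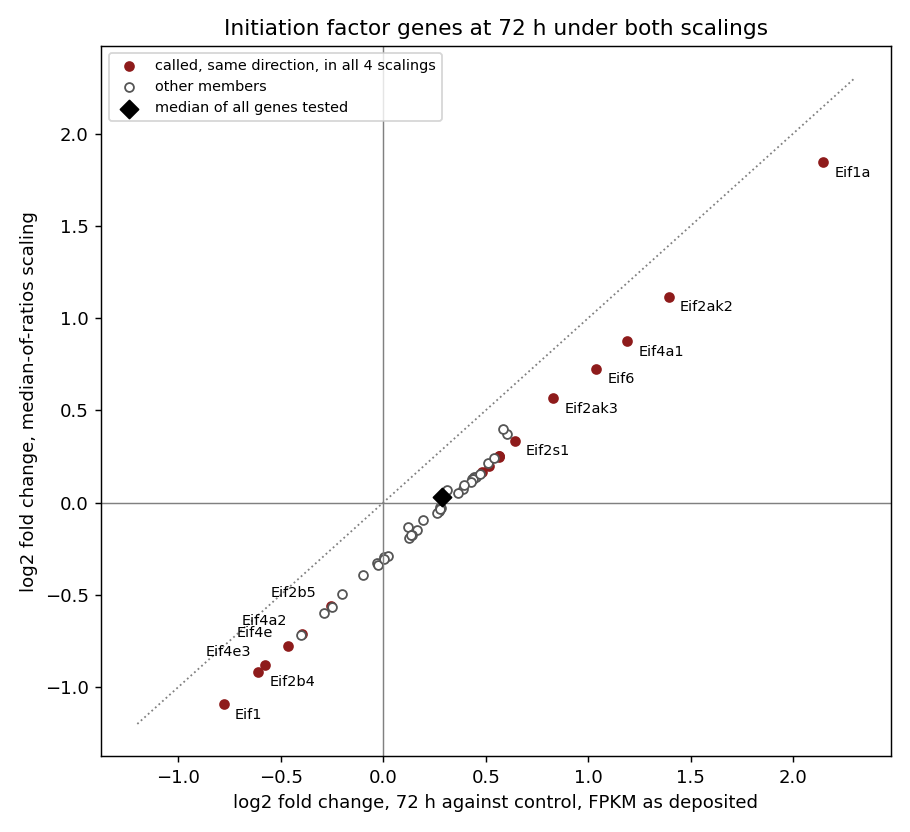
Log2 fold change of the 53 members at 72 h against control, with FPKM as deposited on the horizontal axis and after median-of-ratios scaling on the vertical axis. Filled points were called in the same direction in all 4 scalings, the diamond is the median of all genes tested (0.288 and 0.0309), and the dotted line marks equal values. All members lie below the dotted line, and the filled points sit at both ends.

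The other genes of translation were read from a list of 38, of which 37 were tested. In order of time the counts called higher were 0, 2, 11, 14 and 16. Those called lower were 0, 0, 2, 3 and 11. For comparison, the share of the transcriptome called higher was 0.669% at 1 h and 11.6% at 6 h. The share called lower was 0.0526% at 1 h and 16.8% at 6 h. At 72 h 53.1% of all genes were called higher and 24.2% lower, and at 24 h 26.2% and 11.4%. At 10 min limma thus called none of the 37 tested genes of the list, in any of the roles. At 1 h, when no initiation factor gene was called, the 2 genes were Ppp1r15a (log2 fold change 1.31, adjusted p = 0.00117), for the stress-induced phosphatase subunit that undoes eIF2 phosphorylation, and Ddit4 (1.64, adjusted p = 0.0036), for an inhibitor of mTOR. At 6 h Ppp1r15a reached 2.06 and Ddit4 1.09, and Atf4, for the transcription factor translated when eIF2 is phosphorylated, rose by 1.08 (adjusted p = 0.00443), while Pdcd4, for an inhibitor of eIF4A, fell by 0.60 (adjusted p = 0.00549).

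At 72 h the elongation factor paralogues parted as the helicases did, Eef1a1 with 2.18 (adjusted p = 1.79e-07) and Eef1a2, the form of muscle and neurons, with -1.49 (adjusted p = 1.29e-05). Pabpc1, for the main poly(A)-binding protein, rose by 1.98 (adjusted p = 1.07e-07). Of the kinases that phosphorylate eIF4E, Mknk1 rose by 0.81 (adjusted p = 1.27e-05) and Mknk2 changed by -0.71 (adjusted p = 0.000248), while Mtor, for the kinase that phosphorylates the 4E-BPs, changed by -0.58 (adjusted p = 0.00017). These 6 genes kept their direction at 72 h in all 4 scalings, whereas the change of Ppp1r15a at 72 h (0.38) turned to -0.04 under quantile normalization.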

How the data were processed

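Left ventricular polyA RNA of 18 male mice, 3 per group, had been sequenced. The authors ran cutadapt 1.18 for trimming, HISAT2 2.1.0 for mapping to mm10 and StringTie 1.3.4d for FPKM per gene, per the labels and the paper's methods; the annotation and strand setting are not given in the sources used here. The deposited table holds FPKM for 24419 symbols, and all 18 sample columns were used. Of these columns, 4 are spelled unlike the sample titles and were matched by their remaining letters. Groups came from the sample titles. Nothing says that mice were paired.

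Genes with at least 1 FPKM in at least 1 mouse were tested as log2(FPKM + 1) with limma 3.58.1 in R 4.3.3 (lmFit, eBayes with trend), two-sided, on the 6 mice of each comparison. Genes without any variation in those 6 mice were left out, and p-values were adjusted by Benjamini-Hochberg over all others. FPKM carry no counts, so precision rests on the spread between 3 mice. Sums and ratios of FPKM have no test. The cufflinks test of the authors needs reads and was not repeated.

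Values in every mouse are given for the 4 largest rises and falls among called members at 6, 24 and 72 h, for any member called at 10 min or 1 h, and for a fixed list of regulators and core factors; Eif2s3y, Eif1ax and others named by range were added for contrast with a paralogue or as called members of a role. The members and all lists were chosen with earlier results of these data known. Alternatives were a pseudocount of 0.1, no filter, equal FPKM sums, quantile normalization, median-of-ratios scaling, the replicate number as a block, one fit over all 18 mice, and leaving out each mouse. Positions, shared exons and shared 75-base stretches of the longest coding transcript come from GENCODE M21, and promoter windows from RefSeq (GRCm38.p6). No window was given for Eif4g2, Eif4ebp1, Eif4e3, Eif3i, Eif1a, Eif4ebp3, Eif3h, Eif3j2, Eif6, Eif3e and Eif2b3. Figures were drawn with matplotlib 3.10.9.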

Additional observations from a re-analysis of the deposited data

Results flagged for a closer look

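Differences between 2 times after ligation were tested directly by limma on the 6 mice of both times. Between 24 h and 72 h, 12 of 53 members were called, while 29.7% of all genes were higher at 72 h and 13.5% lower. Lower at 72 h than at 24 h were Eif1 (log2 fold change -0.774), Eif4ebp1 (-0.764), Eif2b4 (-0.643), Eif5 (-0.502), Eif3j2 (-0.484), Eif4g1 (-0.469), Eif2b5 (-0.444), Eif3g (-0.38) and Eif4a2 (-0.365). Higher were Eif2ak2 (1.05), Eif5a2 (0.359) and Eif4b (0.312), where Eif5a2 changed sign under another scaling. Of these calls, those of Eif4b and Eif5a2 were lost in 5 of 6 fits without 1 mouse (adjusted p = 0.0596 to 0.178), those of Eif3g and Eif4a2 in 4 of 6 (0.0648 to 0.0897), that of Eif5 in 3 of 6 (0.0544 to 0.075) and that of Eif4g1 in 1 (0.0592).

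Among the members named with a value in every mouse, 16 differed between 6 h and 72 h. Over the whole transcriptome, 50.3% of genes were called higher at 72 h than at 6 h and 16.7% lower. Part of these members had been named for their calls at 6 h or 72 h in the same mice. The count of 16 therefore does not set the members apart from other genes. Higher at 72 h were Eif2ak2 (1.71), Eif2ak3 (0.949), Eif4a1 (0.502), Eif3a (0.486), Eif6 (0.455), Eif2s1 (0.446), Eif2ak1 (0.397), Eif2b1 (0.305) and Eif3k (0.294). Lower were Eif1 (-0.814), Eif5 (-0.522), Eif2b4 (-0.437), Eif4g1 (-0.374), Eif4e3 (-0.373), Eif4a2 (-0.263) and Eif4e (-0.244). The rises of Eif2ak1, Eif2b1 and Eif3k changed sign under another scaling. With equal FPKM sums Eif4g1, Eif4e3, Eif4a2 and Eif4e were no longer called (adjusted p = 0.0509 to 0.184). Without 1 mouse the calls of Eif4a2 and Eif4e were lost in 5 of 6 fits (0.0543 to 0.117), that of Eif2b1 in 4 (0.0523 to 0.0877), those of Eif4e3 and Eif3k in 3 (0.0518 to 0.0995), that of Eif2s1 in 2 (0.0554 to 0.0593) and that of Eif4g1 in 1 (0.0548).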

How the results depend on the processing

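Scaling, the single fit and left-out mice each moved counts of called members, and the cause was not tested. Counts over all genes moved too. After median-of-ratios scaling 1922 genes were higher at 6 h in place of 1543. At 72 h this scaling gave 5208 higher in place of 7081 and 4792 lower in place of 3226. Quantile normalization gave 4278 higher and 5794 lower at 72 h. The single fit gave 4573 higher at 24 h in place of 3496. Under median-of-ratios scaling 13 members were called higher at 6 h in place of 8, 15 in place of 33 at 72 h, 3 in place of 21 for 72 h against 6 h and 1 in place of 3 for 72 h against 24 h; called lower were 0 at 6 h, 4 at 24 h, 17 at 72 h, 22 for 72 h against 6 h and 15 for 72 h against 24 h. Under quantile normalization 16 were higher at 72 h, 8 for 72 h against 6 h and 1 for 72 h against 24 h, and lower were 1 at 6 h, 5 at 24 h, 17 at 72 h, 17 for 72 h against 6 h and 15 for 72 h against 24 h. With the same FPKM sum, 72 h against 6 h had 3 lower and 72 h against 24 h 8 higher. All 18 mice in one fit gave 31 higher at 24 h and 11 higher for 72 h against 24 h. Without a filter 1 member was lower at 6 h. A pseudocount of 0.1 kept every count within 1.5 times.

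The replicate block gave 0 members lower at 6 h, 4 lower for 72 h against 6 h and 1 higher for 72 h against 24 h. Over all genes it gave 1577 lower at 6 h in place of 2233. For 72 h against 6 h it gave 1954 lower in place of 2229, and for 72 h against 24 h 3803 higher in place of 3963. Same-number mice had correlations of their deviations from -0.327 to 0.317, and in no comparison did every mouse correlate best with its own number, so the numbers were not read as pairs.

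Leaving out 1 mouse gave 4 to 10 members higher and 0 to 2 lower at 6 h, and 10 to 24 and 0 to 2 at 24 h. At 72 h it gave 31 to 32 and 6 to 10. For 72 h against 6 h the counts were 15 to 21 and 3 to 7, and for 72 h against 24 h 1 to 9 and 5 to 9. They were 0 throughout at 10 min and 1 h. Over all genes 763 to 1786 were higher and 852 to 2894 lower at 6 h. At 24 h 1262 to 4043 and 366 to 1796 were, and at 72 h 6681 to 7021 and 2949 to 3170. Signs turned for Eif2ak1 at 72 h (-0.0214 median of ratios, -0.105 quantile) and against 6 h (-0.014 quantile), Eif2b1 for 72 h against 6 h (-0.0808 and -0.0834), Eif3k at 72 h (-0.032 median of ratios) and against 6 h (-0.112), and Eif4ebp3 at 72 h (-0.22 quantile). Without counts, depth per mouse is not known, so low genes such as Eif2ak4 and Eif5a2 carry counting error of unknown size.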

Other observations

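Eif4g2, for a scaffold-like factor of cap-independent initiation, varied widely within most groups. It had 99.0, 67.3 and 100.9 FPKM in control mice, 107, 72.7 and 68.8 in 10 min mice, 71.8, 103 and 61.6 in 1 h mice, 95.9, 47.6 and 107 in 6 h mice, 78.7, 60.0 and 110.4 in 24 h mice, and 62.0, 72.0 and 64.3 in 72 h mice. It was called lower at 72 h (a change of -0.40 in log2, SE 0.15, adjusted p = 0.0339), although control mouse 2 lies inside the range of the 72 h mice, and the call was lost in 4 of 6 fits without 1 mouse (adjusted p = 0.0866 to 0.119) and did not hold in all 4 scalings. The gene has 14 annotated transcripts and 10166 exonic bases in GENCODE M21.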
